A study of Ovis aries with 15 samples.

Results

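Collagens, the matrix metalloproteinases (MMPs) that cut them and the tissue inhibitors of metalloproteinases (TIMPs) were followed in the kidney cortex of fetal sheep. Members were every gene that the array names COL, MMP or TIMP followed directly by a number, read through every probe of that name. That gave 11 of 962 named genes and 19 of 15008 probes (6 COL, 11 MMP and 2 TIMP probes). All 19 passed the filter on dim probes (3 or more arrays well above background), as did 12925 probes in all. COL1A2 is on the array only under a gene ID number, and 1 further COL3A1 probe is listed in the same way. MMP-1 and TIMP-1 are written there with a hyphen, with 2 probes each. These 6 probes, 4 of them tested, are given beside the 19 and are not in the counts of members.

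Each array held the total RNA of 1 fetus, at 125 ± 3 d of gestation, from a chronically catheterised animal. The hypoxia ketamine group (4 arrays) had 30 min of hypoxia through maternal ventilation, and 10 min earlier the fetus had received ketamine intravenously at 3 mg/kg. Ketamine is an anaesthetic that blocks the NMDA type of glutamate receptor. The hypoxia vehicle group (4 arrays) had the same hypoxia with saline. The normoxia ketamine group (4 arrays) and the normoxia vehicle group (3 arrays) had ketamine or saline with 30 min of normoxia. All kidneys were collected 24 h after the onset of the exposure.

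Fibrillar collagens (types I, II and III) give connective tissue its strength. Types I and III are made in the kidney mainly by interstitial fibroblasts and perivascular cells, while type IV collagen forms the sheets of basement membranes. Secreted MMPs are zinc enzymes made as inactive precursors. MMP2 cuts denatured collagen and type IV collagen, MMP14 sits in the cell membrane and activates MMP2, and the TIMPs bind the active site of the enzymes. TIMP2 has another role, since it helps MMP14 to activate MMP2.

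Levels are given as a percent of the 75th percentile of the signal on the same array. That percentile was 1064 to 1425 scanner units over the arrays, and 75.7% to 85.2% of probes were well above background. A probe for placental lactogen, a hormone of the placenta, was well above background on 3 arrays (replicates 1 and 2 of normoxia ketamine, replicate 2 of hypoxia ketamine). Hypoxia ketamine replicate 2 and hypoxia vehicle replicate 4 had the lowest median correlation with the other arrays (0.966 and 0.952). Scan identifiers in the file headers split the arrays into 2 sets, taken here as 2 slides, which the sample labels do not name. Slide 2 held 1 normoxia vehicle array. Of 15 tubule markers of the kidney 5 were tested, and 1, AQP3, rose with hypoxia in vehicle fetuses (0.73), where 5.76% of all tested probes rose. The median log2 change of the 5 was 0.23 in vehicle and -0.15 in ketamine fetuses. Of podocyte markers only WT1 was tested, and none of 5 nephron progenitor markers had a named probe.

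The collagen probes read different stretches of the messages, and their sequences show which readings overlap. In a collagen triple helix glycine recurs after each pair of other residues, so that the coding strand carries GGN every 9 bases, in capitals in the last 3 lines. At least 6 such codons in register were found in 7 of 34 collagen, MMP and TIMP probes (9 collagen probes named by description only are included) and in 17 of 14974 other probes. Both COL3A1 probes listed by symbol lack this pattern and share 58 bases, in capitals in the first 2 lines, so they are close to 1 measurement.
COL3A1 A_70_P016306: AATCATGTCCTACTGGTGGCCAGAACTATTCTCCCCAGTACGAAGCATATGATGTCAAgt
COL3A1 A_70_P016307: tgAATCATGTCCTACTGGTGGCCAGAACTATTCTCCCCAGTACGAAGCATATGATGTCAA
COL3A1 A_70_P006991, listed under a gene ID: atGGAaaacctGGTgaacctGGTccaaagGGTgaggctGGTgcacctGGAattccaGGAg
COL3A1 by description, A_70_P048191: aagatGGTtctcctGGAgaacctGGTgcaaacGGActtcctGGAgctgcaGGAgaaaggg
COL1A2 A_70_P024601, listed under a gene ID: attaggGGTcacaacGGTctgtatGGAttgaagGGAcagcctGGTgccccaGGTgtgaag

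In what follows a probe rose or fell where limma's unadjusted p was within 0.05, the threshold the study names, and the p printed beside a change is adjusted over all tested probes by the Benjamini-Hochberg method. Most calls passed only the unadjusted threshold.

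COL3A1, the single chain of type III collagen, fell after hypoxia in vehicle and in ketamine fetuses. Probe A_70_P016306 read 26.4%, 32.7%, 34.2% and 33.2% on the hypoxia vehicle arrays, against 50.02%, 47.0% and 43.4% on the normoxia vehicle arrays. In ketamine fetuses it read 36.3%, 28.3%, 35.6% and 32.2% after hypoxia, against 53.1%, 42.8%, 39.6% and 50.8% after normoxia. All 8 hypoxic arrays were below all 7 normoxic ones, a separation that 0.588% of all tested probes showed in this direction. The level was 32.6% lower in vehicle fetuses (log2 change -0.57 ± 0.14, SE, adjusted p = 0.139) and 28.7% lower in ketamine fetuses (-0.49 ± 0.13, adjusted p = 0.290). Over both arms the log2 change was -0.53 (95% interval -0.73 to -0.32, adjusted p = 0.0216). The overlapping probe A_70_P016307 read 25.3%, 30.2%, 34.2% and 35.1% on the hypoxia vehicle arrays, against 49.4%, 45.3% and 45.7% on the normoxia vehicle arrays. The ketamine fetuses gave 36.9%, 29.0%, 34.4% and 30.7% after hypoxia, against 52.4%, 41.1%, 40.0% and 48.6% after normoxia. Its hypoxic arrays, too, were all below its normoxic ones, and it gave -0.59 in vehicle fetuses, -0.47 in ketamine fetuses and -0.53 over both arms (adjusted p = 0.133, adjusted p = 0.313 and adjusted p = 0.0216).

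A separate stretch of COL3A1, A_70_P048191, known only from its description as alpha 1(III), also fell in both arms. It read 121%, 121%, 93.7% and 113% on the hypoxia vehicle arrays, against 162%, 164% and 139.8% on the normoxia vehicle arrays. In ketamine fetuses it read 102%, 100.02%, 107% and 79.0% after hypoxia, against 129.6%, 173%, 118% and 141% after normoxia. Within each infusion the hypoxic arrays were all below the normoxic ones, but the highest hypoxia vehicle arrays passed the lowest normoxia ketamine array. The log2 changes were -0.47 ± 0.15 in vehicle and -0.53 ± 0.14 in ketamine fetuses, and -0.50 over both arms (adjusted p = 0.0369). Its vehicle call was lost within each slide, and its calls in ketamine fetuses and over both arms were lost within slide 2.

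A further COL3A1 stretch within the helix, A_70_P006991, fell in vehicle fetuses by a smaller amount. It averaged 23.9% ± 3.64 on the hypoxia vehicle arrays and 30.1% ± 3.54 on the normoxia vehicle arrays (SD, n = 4 and 3 arrays), with overlapping ranges. The log2 change was -0.34 in vehicle fetuses (adjusted p = 0.298), -0.25 in ketamine fetuses (not called, adjusted p = 0.678) and -0.29 over both arms (called, adjusted p = 0.138). Its vehicle call was lost without any 1 of 9 arrays and in 8 of 12 other settings, among them slide as a block, the replicate block and quantile scaling.

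COL1A2, the alpha 2 chain of type I collagen, fell in both arms, with groups that overlapped. Probe A_70_P024601 read 28.7%, 36.2%, 27.0% and 26.7% on the hypoxia vehicle arrays, against 41.3%, 43.9% and 35.8% on the normoxia vehicle arrays. In ketamine fetuses it read 32.9%, 25.0%, 38.2% and 27.7% after hypoxia, against 42.2%, 40.1%, 32.0% and 40.2% after normoxia. In each pair of groups some hypoxic array reached into the normoxic range. The level was 26.8% lower in vehicle fetuses (log2 change -0.45 ± 0.17, adjusted p = 0.228) and 20.5% lower in ketamine fetuses (-0.33 ± 0.15, adjusted p = 0.572). Over both arms the change was -0.39 (adjusted p = 0.0839). The call in ketamine fetuses was lost when any 1 of 12 arrays was left out and in 8 of 12 other settings, among them slide as a block (-0.33) and the replicate block (-0.33). That in vehicle fetuses was lost without normoxia vehicle replicate 2 and within each slide.

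**Figure D1:**
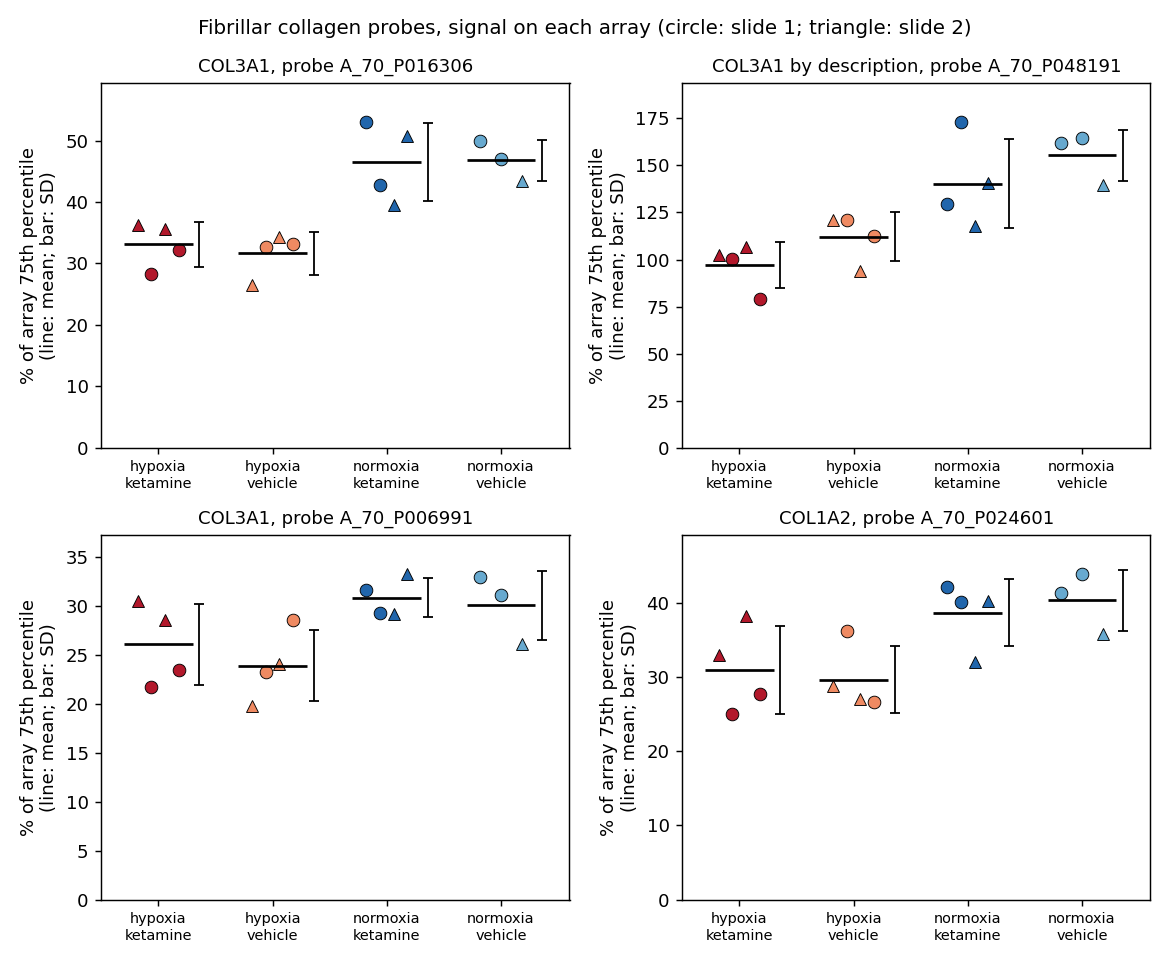
Signal of 4 fibrillar collagen probes on each of the 15 arrays, in percent of the 75th percentile of the array, by group, with a line at the mean, a bar for the SD and marker shape for the slide. All hypoxic arrays lie below all normoxic arrays for A_70_P016306, and the groups of COL1A2 and of A_70_P006991 overlap.

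Both slides gave COL3A1 and COL1A2 changes below 0, of unequal size. In ketamine fetuses COL1A2 changed by -0.65 on slide 1 and -0.02 on slide 2, and COL3A1 (A_70_P016306) by -0.66 and -0.32. In vehicle fetuses COL1A2 gave -0.45 and -0.36, and COL3A1 -0.56 and -0.53. With at most 2 arrays a group on a slide, and 1 normoxia vehicle array on slide 2, the slide 1 values of COL3A1 in both arms and of COL1A2 in ketamine fetuses passed the unadjusted threshold and the others did not.

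The chain that pairs with COL1A2 in type I collagen, alpha 1(I), is on the array only by description, and hypoxia did not call it. Its probes A_70_P016376 and A_70_P047991 gave -0.26 and -0.29 in vehicle fetuses and 0.08 and -0.00086 in ketamine fetuses. The first read 28.8%, 20.9%, 28.8% and 32.6% on the hypoxia ketamine arrays and 16.6%, 22.1%, 19.3% and 21.8% on the hypoxia vehicle arrays. These ranges overlapped through hypoxia ketamine replicate 2. With ketamine this probe rose in hypoxic fetuses by 0.47 ± 0.16 (adjusted p = 0.805), and the other probe gave 0.33, not called. The hypoxia by ketamine interaction was not called for either probe (0.34, 95% interval -0.15 to 0.83, and 0.29, -0.21 to 0.80).

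Among the basement membrane chains, COL4A3, a type IV chain of the glomerular basement membrane, had log2 changes of -0.34 in vehicle and -0.31 in ketamine fetuses and was not called (95% intervals -0.96 to 0.28 and -0.89 to 0.26). A probe described as alpha 1(IV), A_70_P047986, read 50.1%, 57.9%, 48.4% and 43.6% on the hypoxia ketamine arrays and 81.7%, 66.5%, 64.4% and 87.1% on the hypoxia vehicle arrays. It read 82.5%, 52.2%, 75.8% and 87.8% on the normoxia ketamine arrays. All hypoxia ketamine arrays were below all hypoxia vehicle arrays, as for 0.936% of all tested probes, and normoxia ketamine replicate 2 was the low array of its group. The probe fell with hypoxia in ketamine fetuses (-0.56 ± 0.17, adjusted p = 0.349) and with ketamine in hypoxic fetuses (-0.58 ± 0.17, adjusted p = 0.805), comparisons that share the hypoxia ketamine arrays. In vehicle fetuses its change was -0.13 (95% interval -0.53 to 0.26), and the interaction was -0.42 (-0.96 to 0.11). Over both arms it was called lower, not past the adjusted threshold (-0.43 to -0.30 with each array left out in turn). Each of its calls was lost within slide 1.

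A probe described as alpha 1(XVI), A_70_P029441, read 8.60%, 7.37%, 3.90% and 11.4% on the hypoxia vehicle arrays, against 9.52%, 25.6% and 14.5% on the normoxia vehicle arrays. The ranges overlapped, and normoxia vehicle replicate 2 was the highest array. The probe fell in vehicle fetuses (-1.06 ± 0.44, adjusted p = 0.265) and gave -0.81 in ketamine fetuses, not called. The vehicle call was lost without normoxia vehicle replicate 2 or 3 or hypoxia vehicle replicate 3, with normexp background correction and within each slide. Over both arms the probe was called lower, not past the adjusted threshold. That call held with each array left out in turn (-1.11 to -0.75) and was lost with normexp and within slide 1. COL2A1, the cartilage chain, changed by -0.09 in vehicle and 0.07 in ketamine fetuses. Over the 15 arrays its probe correlated at only 0.223 with the probe described as type II. The 2 probes named COL6A1, which the array describes as the alpha 3 chain of type VI, gave 0.11 and 0.10 in vehicle and -0.04 and 0.41 in ketamine fetuses. Neither gene was called in any comparison, nor were probes described as alpha 2(IV), alpha 2(V), type II and type XII. These descriptions, unlike the gene names, cite the matching collagen of cattle, pig, horse, dog or mouse.

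MMP2, a gelatinase, was read by 3 probes whose stretches differ, shown because all 3 fell in the same comparison.
MMP2 A_70_P026546: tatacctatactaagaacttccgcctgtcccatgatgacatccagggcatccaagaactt
MMP2 A_70_P026547: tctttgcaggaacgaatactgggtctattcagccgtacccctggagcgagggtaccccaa
MMP2 A_70_P061386: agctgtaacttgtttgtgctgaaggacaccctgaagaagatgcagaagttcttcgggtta
Over the 15 arrays the pairs of probes correlated at 0.885 to 0.968. MMP2 fell with hypoxia in vehicle fetuses on all 3 probes, and no probe was called in ketamine fetuses. Over both arms A_70_P026547 and A_70_P061386 were called lower, neither past the adjusted threshold. Their log2 changes over both arms were -0.43 to -0.27 and -0.46 to -0.32 with each array left out in turn. Both calls were lost within each slide, the first also without normoxia vehicle replicate 1 and the second also with normexp background correction.

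Probe A_70_P026547 read 21.6%, 23.8%, 23.9% and 25.8% on the hypoxia vehicle arrays, against 42.1%, 37.6% and 34.1% on the normoxia vehicle arrays. In ketamine fetuses it read 26.0%, 17.4%, 33.2% and 30.0% after hypoxia, against 34.3%, 20.8%, 26.3% and 29.0% after normoxia. The vehicle groups did not overlap, and the ketamine groups covered much the same range. The log2 change was -0.67 ± 0.21 in vehicle fetuses (37.1% lower, adjusted p = 0.175) and -0.07 in ketamine fetuses (95% interval -0.48 to 0.35). Probe A_70_P061386 read 5.83%, 7.12%, 5.63% and 6.17% on the hypoxia vehicle arrays, against 10.3%, 9.98% and 8.38% on the normoxia vehicle arrays. The ketamine fetuses gave 6.32%, 4.78%, 8.36% and 8.33% after hypoxia, against 9.15%, 6.28%, 8.43% and 7.36% after normoxia. Hypoxia ketamine replicate 2 was again the lowest array. Probe A_70_P026546 read 16.0%, 17.8%, 19.0% and 20.3% on the hypoxia vehicle arrays, against 30.0%, 26.8% and 23.1% on the normoxia vehicle arrays. The ketamine fetuses gave 17.8%, 14.7%, 27.0% and 23.8% after hypoxia, against 25.1%, 15.4%, 19.6% and 21.6% after normoxia. On both probes the ketamine groups overlapped. They changed by -0.63 and -0.54 in vehicle fetuses (adjusted p = 0.175 and adjusted p = 0.245) and by -0.19 and 0.01 in ketamine fetuses. On all 3 probes the hypoxia vehicle arrays lay entirely below the normoxia vehicle arrays, as for 9.57% of all tested probes. Within slides, A_70_P026547 changed by -0.68 on slide 1, not called, and -0.58 on slide 2, called against a single normoxia vehicle array, in vehicle fetuses. The vehicle call of A_70_P026546 was lost without replicate 1 of either vehicle group or normoxia vehicle replicate 2, and within each slide. That of A_70_P061386 was lost with normexp background correction and within each slide.

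The difference of the MMP2 response between the infusions was not called by the fit of 4 group means to all 15 arrays. The interaction was 0.60 ± 0.28 for A_70_P026547 (95% interval -0.01 to 1.21), 0.55 for A_70_P026546 (-0.06 to 1.16) and 0.44 for A_70_P061386 (-0.13 to 1.01). It was called on A_70_P026547 in the deposited table of values (0.59, adjusted p = 0.988) and with the replicate block (0.65, adjusted p = 0.994), neither past the adjusted threshold. Normoxia ketamine arrays were lower on average than normoxia vehicle arrays on A_70_P026547 (log2 change -0.48 ± 0.21, called, not past the adjusted threshold), with overlapping ranges. That call was lost without normoxia ketamine replicate 2 or 3 or normoxia vehicle replicate 1 or 2. It was also lost with normexp background correction and within each slide. The lowest array of each ketamine group was replicate 2, and both of these had placental lactogen signal. The third array with that signal, normoxia ketamine replicate 1, was the highest of its group. Without the 3 arrays with that signal the interaction was called on each probe, at 0.77 for A_70_P026547, 0.67 for A_70_P026546 and 0.58 for A_70_P061386 (adjusted p = 0.850 for each). All 3 lay on slide 1, and without them the normoxia ketamine group was on slide 2 only. The part of slide in this change was not tested. The same probes were also called when hypoxia ketamine replicate 2 was left out together with hypoxia vehicle replicate 4, an array with no placental lactogen signal (0.83, 0.75 and 0.60). The part of placental RNA in these values was not tested.

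**Figure D2:**
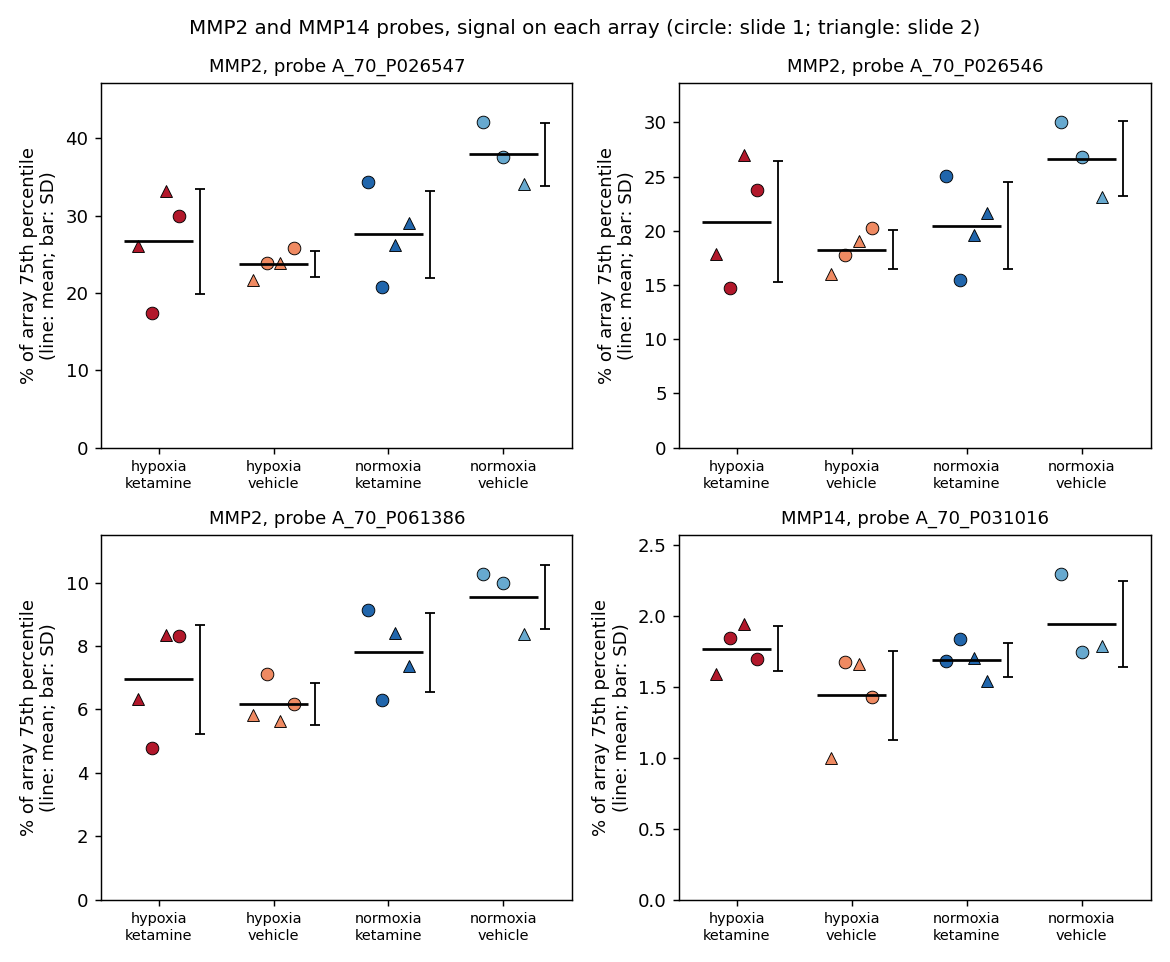
Signal of the 3 MMP2 probes and of MMP14 probe A_70_P031016 on each array, in percent of the 75th percentile of the array, with a line at the mean, a bar for the SD and marker shape for the slide. Hypoxia vehicle arrays lie below normoxia vehicle arrays in all 4 panels, and the ketamine groups overlap.

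MMP14, the membrane enzyme that activates MMP2, was called on 1 of 4 probes. A_70_P031016 read 1.002%, 1.68%, 1.66% and 1.43% on the hypoxia vehicle arrays, against 2.30%, 1.75% and 1.79% on the normoxia vehicle arrays. The ketamine fetuses gave 1.59%, 1.85%, 1.95% and 1.70% after hypoxia, against 1.69%, 1.84%, 1.70% and 1.54% after normoxia. The vehicle groups stood apart by a small gap, and 14 of the 15 arrays were well above background. The log2 change was -0.45 ± 0.17 in vehicle fetuses (adjusted p = 0.242) and 0.06 in ketamine fetuses, and the interaction was 0.51 (called, adjusted p = 0.989). Probe A_70_P031017, which shares 29 bases with it, gave -0.0022 in vehicle fetuses, and A_70_P050291 and A_70_P050426 gave -0.38 and -0.19, none of them called. Correlations between the MMP14 probes over the arrays ran from -0.284 to 0.566. The interaction was lost without any 1 of 9 arrays and in 8 of 10 other settings, among them slide as a block (0.49), the replicate block (0.49) and the deposited table (0.27). The vehicle call was lost without replicate 1 of either vehicle group and in 5 of 11 other settings, among them normexp (-0.26), the fit of only the groups compared (-0.45) and the deposited table (-0.20).

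MMP7, matrilysin, is made by epithelial cells, and its 2 probes had the widest errors of the tested members. On A_70_P016331 the normoxia ketamine arrays read 2.06%, 12.9%, 1.06% and 1.11%, with replicate 2 far above every other array. The hypoxia ketamine arrays read 0.841%, 1.73%, 0.836% and 0.379%, the hypoxia vehicle arrays 2.29%, 1.26%, 0.910% and 3.58% and the normoxia vehicle arrays 1.29%, 1.25% and 0.795%. The other probe, A_70_P016332, read 13.1% on the same normoxia ketamine array. Log2 changes with hypoxia were 0.69 ± 0.77 and 0.90 ± 0.99 in vehicle and -1.52 ± 0.72 and -1.68 ± 0.92 in ketamine fetuses, none of them called. A_70_P016332 was not well above background on any normoxia vehicle array. Dim normoxia vehicle arrays were raised to the lowest signal well above background on the array. Against their mean, that of the hypoxia vehicle group, where 2 of 4 arrays measured the probe, was 1.54-fold. That of the normoxia ketamine group, where 3 of 4 did and replicate 2 was the high array, was 2.01-fold. Neither change was called (adjusted p = 0.680 and adjusted p = 0.9997). The ranges overlapped, with normoxia vehicle arrays at 0.566% to 0.749%. The lowest hypoxia vehicle array read 0.516% and the lowest normoxia ketamine array 0.386%.

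Of the other collagenases and gelatinases, MMP9 was well above background on 3 arrays in all and MMP13 on 5, and neither was called (log2 changes in ketamine fetuses of 0.22 and 0.10). Both probes of MMP1, interstitial collagenase, were too dim to test, with 0 arrays and 1 array well above background. MMP9 is stored in neutrophils, and CATHL3, a neutrophil cathelicidin, rose with hypoxia in ketamine fetuses (log2 change 3.17, adjusted p = 0.517). It gave 1.57 in vehicle fetuses, not called. The other tested neutrophil marker, lactoferrin (LTF), gave 1.74 in ketamine and 0.93 in vehicle fetuses and was not called.

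TIMP2 rose with hypoxia in ketamine fetuses. It read 12.2%, 7.79%, 6.79% and 10.9% on the hypoxia ketamine arrays, against 7.31%, 7.21%, 5.64% and 6.90% on the normoxia ketamine arrays. In vehicle fetuses it read 7.07%, 6.62%, 6.17% and 8.90% after hypoxia, against 5.59%, 5.26% and 7.43% after normoxia. Hypoxia ketamine replicates 1 and 4 were the highest arrays, and the ranges overlapped in both arms. The log2 change was 0.45 ± 0.19 in ketamine fetuses (adjusted p = 0.547), 0.24 in vehicle fetuses, not called, and 0.34 over both arms (called, adjusted p = 0.2005). The ketamine call was lost without either of these replicates or without normoxia ketamine replicate 3 or 4. It was also lost in 5 of 12 other settings. These were quantile scaling, each slide alone, the fit of only the groups compared and the deposited table. The call over both arms was lost without any 1 of 6 arrays and in 4 of 11 other settings. Those settings were normexp, quantile scaling, slide 2 alone and the deposited table. Within slides, where neither arm was called, TIMP2 changed in vehicle fetuses by 0.50 on slide 1 and -0.17 on slide 2.

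TIMP1 has 2 probes that share 59 bases. On A_70_P051412 hypoxia ketamine arrays averaged 2212% ± 497 and normoxia ketamine arrays 1712% ± 422 (SD, n = 4 arrays each). Hypoxia vehicle arrays averaged 1960% ± 388 and normoxia vehicle arrays 1542% ± 35.7 (SD, n = 4 and 3 arrays). The ranges overlapped in both arms. Over both arms the change was 0.35 on this probe (called, adjusted p = 0.181) and 0.29 on A_70_P051411, not called. Neither probe was called in a single arm, and A_70_P051412 lost its call over both arms without hypoxia vehicle replicate 3 and in 6 of 11 other settings, among them the replicate block (0.33), normexp (0.32) and the deposited table (0.28). TIMP3, the inhibitor that binds to the matrix, gave 0.30 in vehicle and 0.02 in ketamine fetuses, not called.

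**Figure D3:**
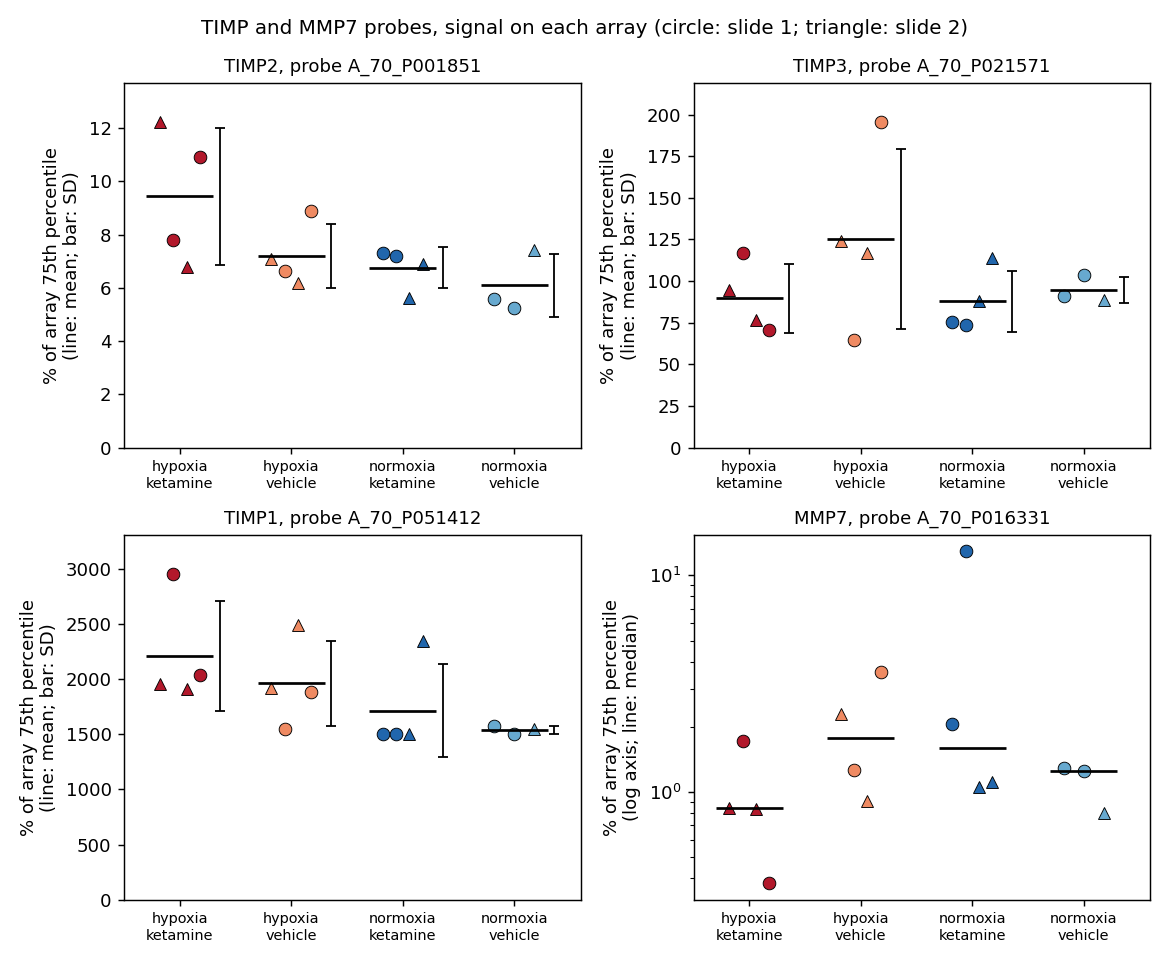
Signal of TIMP2, TIMP3, TIMP1 and MMP7 probes on each array, in percent of the 75th percentile of the array, with a line at the mean and a bar for the SD, and for MMP7 a log axis and a line at the median. TIMP2 is high on 2 hypoxia ketamine arrays, and MMP7 reaches 12.9% on 1 normoxia ketamine array.

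Counted over the 19 member probes, 6 fell and 0 rose with hypoxia in vehicle fetuses, where 10.4% of all tested probes fell, 5.76% rose and 16.1% were called. These 6 were 2 COL3A1, 3 MMP2 and 1 MMP14 probe, so 3 genes, and 0 passed the adjusted threshold, as 0.0155% of all tested probes did. In ketamine fetuses 2 fell, both COL3A1, and TIMP2 rose, where 4.97% of all tested probes fell, 3.68% rose and 8.65% were called, and 0% passed the adjusted threshold. Over both arms 4 fell, of COL3A1 and MMP2, and 1, TIMP2, rose (20.2% of all tested probes called). The 2 COL3A1 probes passed the adjusted threshold, as did 1.6% of all tested probes. The median change of the members was -0.13 in vehicle and -0.04 in ketamine fetuses, and that of all tested probes -0.05 and -0.02. In both arms the 2 COL3A1 members, COL1A2 (in ketamine fetuses not with slide or replicate as a block) and the described COL3A1 probe were called lower, as were 2.21% of all tested probes. In ketamine fetuses, too, the groups of the 2 COL3A1 members did not overlap, as for 3.68% of all tested probes in this direction. The hypoxia comparisons of vehicle and of ketamine fetuses share no arrays.

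Ketamine against vehicle called 0 of 19 members in hypoxic fetuses, where 6.05% of all tested probes were called, and 1, MMP2, in normoxic fetuses, where 2.7% were. COL3A1 (A_70_P016306) had log2 changes with ketamine of 0.07 in hypoxic fetuses (95% interval -0.21 to 0.34) and -0.02 in normoxic fetuses (-0.32 to 0.28), and COL1A2 of 0.05 and -0.07. The interaction called 1 of 19 members, the MMP14 probe, and 3.13% of all tested probes. With slide as a block the 1 member called was MMP7 A_70_P016331 (-2.36), and in the deposited table it was MMP2 A_70_P026547. With the replicate block these 2 were called and MMP14 was not. These comparisons share arrays with the hypoxia comparisons.

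**Figure D4:**
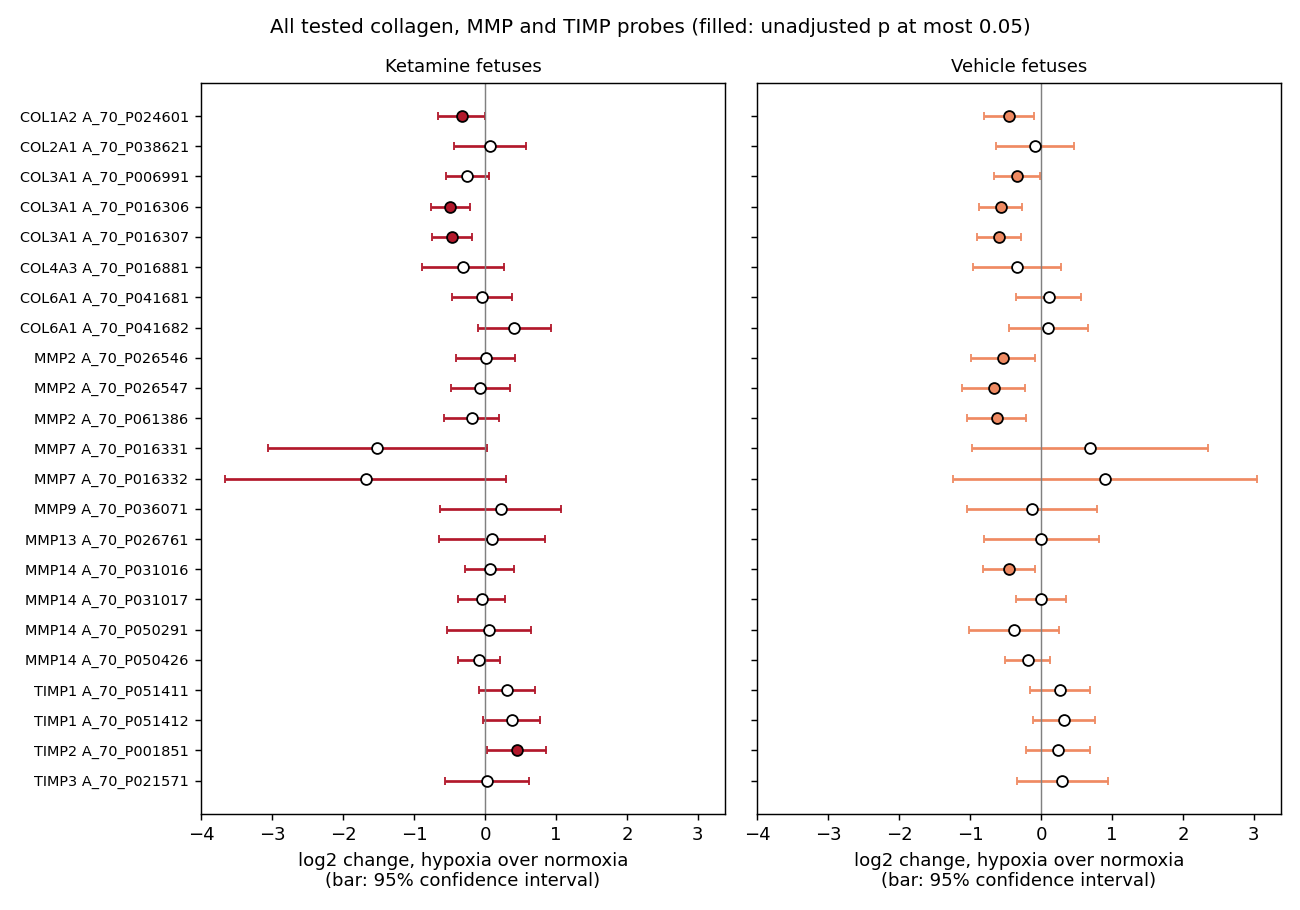
Log2 change of hypoxia over normoxia with its 95% confidence interval for the 23 tested collagen, MMP and TIMP probes in ketamine fetuses and in vehicle fetuses, filled where the unadjusted limma p was within 0.05. The COL3A1 probes lie below 0 in both panels, and the MMP2 probes lie below 0 in vehicle fetuses and near 0 in ketamine fetuses.

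With group means removed, COL3A1 and MMP2 varied together over the 15 arrays (Pearson r = 0.718, permutation p = 0.00716, adjusted over 6 tests 0.0430, and Spearman rho 0.693, permutation p = 0.0167, adjusted 0.0502). Within slides r was 0.903 and 0.640, and without the 2 farthest arrays 0.826. COL1A2 and COL3A1 gave r = 0.587 (permutation p = 0.0503, adjusted 0.0755), and 0.351 without the 2 farthest arrays. COL1A2 and MMP2 gave r = 0.482 (permutation p = 0.165).

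Among 825 named genes, those whose levels over the 15 arrays were most like COL3A1 were CLMP, RPA1 and SMAD5 (r = 0.898, 0.889 and 0.862). For MMP2 they were BGN, ZO1 and SMO (0.865, 0.837 and 0.820), and for COL1A2 they were SMAD5, PHF14 and ANG-1 (0.868, 0.814 and 0.804). These values describe arrays that share the group differences, and with group means removed they were 0.546 to 0.780.

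Other matrix genes were few on the array. Of 5 tested structural genes, 2 fell with hypoxia in vehicle fetuses and 0 rose, where 10.4% of all tested probes fell. They were netrin 4, NTN4, a protein of basement membranes (-0.84, adjusted p = 0.144), and biglycan, BGN, a small proteoglycan that binds collagen (-0.45, adjusted p = 0.201). In ketamine fetuses 1 of the 5, NTN4, fell (-0.98, adjusted p = 0.165), where 4.97% of all tested probes fell. Over both arms NTN4 passed the adjusted threshold (-0.91, adjusted p = 0.0120), as did 1.6% of all tested probes. Decorin, DCN, another collagen-binding proteoglycan, gave -0.17 and -0.16 and was not called. None of 5 tested integrin genes was called for hypoxia, and 0 of 25 genes for collagen processing had a named probe.

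Of 6 tested proteases and their controls outside the MMPs, 1 rose in both arms. It was PLAUR, the receptor that holds urokinase at the cell surface (2.37 in vehicle and 1.17 in ketamine fetuses). Of all tested probes 5.76% rose in vehicle and 3.68% in ketamine fetuses. Over both arms PLAUR rose by 1.77 (adjusted p = 0.0421). PLAU, urokinase itself, gave 0.55 and -0.23 and was not called for hypoxia. Of 12 tested genes of transforming growth factor beta signalling, which drives collagen expression in fibroblasts, 4 fell in vehicle fetuses and 0 rose, where 10.4% of all tested probes fell. They were SNAI2 (-1.48), SMAD2 (-0.47), TGFBR1 (-0.47) and SMAD4 (-0.27). In ketamine fetuses 1 of the 12, SMAD4, fell (-0.29), where 4.97% of all tested probes fell. The median change of the 12 was -0.25 in each arm, against -0.05 and -0.02 for all tested probes.

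Of 9 tested inducers of MMP transcription, 7 rose in vehicle fetuses, where 5.76% of all tested probes rose, and 1 in ketamine fetuses, where 3.68% did. The cytokines TNF, IL1B and IL1A rose by 4.05, 3.56 and 3.20 in vehicle fetuses, and TNF by 1.52 in ketamine fetuses. IL6 was well above background on 2 of 4 hypoxia vehicle arrays and 0 of 3 normoxia vehicle arrays, so no fold is given. In ketamine fetuses it was so on 3 hypoxia arrays and 0 normoxia arrays. It thus passed the filter on dim probes through hypoxic arrays only, and the counts of the 9 were not made without it. With ketamine 7 of the 9 fell in hypoxic fetuses, where 3.48% of all tested probes fell, among them IL1B (-2.71, adjusted p = 0.805) and TNF (-2.65, adjusted p = 0.805). This comparison shares the hypoxia vehicle arrays with that of hypoxia in vehicle fetuses. The median change of the 9 with hypoxia was 2.79 in vehicle and 0.90 in ketamine fetuses. The interaction called 2 of the 9, both below 0, where 3.13% of all tested probes were called.

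Macrophage markers were higher beside these genes. Of 6 tested, 5 rose with hypoxia in vehicle fetuses and 4 in ketamine fetuses, against 5.76% and 3.68% of all tested probes. Their summed level was 119% to 374% on hypoxia ketamine arrays and 84.5% to 101% on normoxia ketamine arrays, and 133% to 393% on hypoxia vehicle arrays and 87.3% to 94.5% on normoxia vehicle arrays. ITGAM, 1 of the 6, was well above background on 2 hypoxia ketamine arrays, 1 hypoxia vehicle array and 0 arrays of either normoxia group. It passed the filter on dim probes through hypoxic arrays only, and the counts and sums were not made without it. Of 13 fibroblast markers only DCN and VIM were measured, and neither was called. With hypoxia DCN changed downward and VIM upward in both arms (median 0.003 in vehicle and 0.01 in ketamine fetuses), so their sum mixes opposite changes. Their summed level was 9743% to 13009% on hypoxia ketamine arrays and 8719% to 11790% on normoxia ketamine arrays, and 9515% to 11382% on hypoxia vehicle arrays and 9447% to 10139% on normoxia vehicle arrays. Of 4 tested endothelial markers 1, KDR, fell (-0.38 in vehicle and -0.35 in ketamine fetuses), where 10.4% and 4.97% of all tested probes fell. The others were not called, and the median change of the 4 was -0.30 in vehicle and -0.02 in ketamine fetuses. The part of cell make-up in the collagen and MMP2 values was not tested. In bulk tissue, fewer cells of a type and less RNA per cell cannot be told apart.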

How the data were processed

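Single-colour Agilent ovine arrays were used, 1 per fetus. Per the file headers, the deposited scanner intensity was background subtracted and detrended within each array by Feature Extraction 10.1.1.1. The deposited table of values holds log2 values with column medians of 8.98 to 8.99. All 15 columns tracked an array of their own group best, but only 3 their own array, so it served as an alternative. Its background correction is not given in the sources used here. Per the submitters' processing notes, limma was used.

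Log2 processed signal minus the array's 75th percentile was fitted in limma 3.58.1 (R 4.3.3), with 1 mean per group, all 15 arrays, 11 residual and 2.38 prior degrees of freedom and two-sided tests. Adjustment (Benjamini-Hochberg) was over 12925 probes. The fit was tested on simulated data. Names came from the array annotation and a RefSeq table (1556 probes, 10.4%). Every member probe is accounted for, with values per array for members called in any comparison. At most 4 genes a list were named, those with the largest change among called genes, and most-like genes were the 3 with the highest r. Members and lists were chosen with earlier results of these data known. Arrays of equal replicate number correlated at -0.291 to 0.37 and were not paired. Alternatives were normexp (offset 50), quantile scaling, other filters, slide, replicate block, the deposited table and leaving out arrays. The number of arrays limits the precision.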

Additional observations from a re-analysis of the deposited data

Results flagged for a closer look

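Among 96 groups of 4 arrays over the collagen, MMP and TIMP probes, 7 had 1 array far from the other 3, and chance alone would flag about 1 in 20 groups. TIMP1 gave 4 of the 7, on 2 probes that share 59 bases. Hypoxia ketamine replicate 2 read 2946% and 2954% of the 75th percentile of the array, and normoxia ketamine replicate 4 read 2289% and 2345%. Hypoxia ketamine replicate 2 was also low, at 202%, on the probe described as type XII collagen, and is 1 of the 3 arrays with placental lactogen signal. Normoxia ketamine replicate 2, another of those, was low on COL6A1 probe A_70_P041682 (3.27%). Normoxia ketamine replicate 3 was high on the probe described as alpha 2(IV) collagen (51.6%). Whether placental RNA plays a part was not tested. The response of MMP14 probe A_70_P031016 to hypoxia differed between ketamine and vehicle fetuses by an interaction of 0.51 on the log2 scale (limma, adjusted p = 0.989), past the unadjusted threshold only.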

How the results depend on the processing

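Counts of called members among 19 changed with these settings. Hypoxia in vehicle fetuses called 6, and 2 within slide 1, 1 within slide 2 and 0 at an adjusted p of 0.05. Hypoxia in ketamine fetuses called 3, and 0 within slide 2 and 0 after adjustment. Over both arms 5 were called, and 3 with normexp, 3 within slide 1, 3 within slide 2, 2 after adjustment and 8 with the other names added. Ketamine in hypoxic fetuses called 0, and 1 with normexp, 1 with quantile scaling, 3 without the 3 placental lactogen arrays and 1 without the 2 arrays of lowest correlation. Ketamine in normoxic fetuses called 1, and 0 with normexp, within slide 1, within slide 2 and after adjustment. The interaction called 1, and 0 with normexp, within slide 1, within slide 2 and after adjustment, 2 with quantile scaling, 2 with the replicate block, 3 without the placental lactogen arrays and 3 without the 2 arrays. The settings with arrays left out for placental lactogen or correlation, and the added names, were chosen after seeing the data. Leaving out each array in turn gave 4 to 8, 2 to 4, 3 to 6, 0 to 2, 0 to 2 and 0 to 4 calls in this order. With the replicate block the counts were 6, 4, 5, 0, 1 and 2. Within-slide fits have fewer arrays, and the other causes were not tested. No called change of a collagen, MMP or TIMP probe turned its sign under the alternatives run, which did not cover the genes of other lists. For all probes, normexp moved the share of calls that were higher to 63.1% in ketamine fetuses, against 42.6%, to 54% against 42.5% for ketamine in hypoxic and 50.9% against 35.2% in normoxic fetuses, with quantile scaling giving 51.9% and 52.4%, and shifted the median interaction to 0.18.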
